A study of Mus musculus with 16 samples.

Results

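Cells of the mouse line 32Dcl.3 that received the transcription factor IRF8 were compared directly with cells of the same line that received C/EBPalpha, both taken 3 days after transduction. The arrays were chosen by their labels alone. They were the 2 arrays of cells with MSCV-IRF8-CD8 and an empty MSCV-puro vector, set against the 2 arrays of cells with an empty MSCV-CD8 vector and MSCV-CEBPalpha-puro, 4 of the 16 arrays of the series. All genes were compared. Cells with both empty vectors (2 arrays) gave the level without either factor, and cells with both factors (2 arrays) entered the model that estimated the spread. Every group thus carried a CD8 vector and a puro vector, the cDNAs were murine, and the cells grew in medium conditioned by WEHI3B cells. The wider series also holds MDPs, progenitors of monocytes and dendritic cells sorted out of bone marrow, and cMoPs, common monocyte progenitors, of wild-type (WT) and Irf8-deficient (Irf8KO) mice, 2 arrays each, which are used below as a separate measurement. 32Dcl.3 is an established line of myeloid progenitors that depends on added cytokine, both cDNAs were expressed from retroviral vectors, and the sources used here do not say how transduced cells were enriched.

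IRF8 is a transcription factor of the interferon regulatory factor family that is needed for monocytes and several kinds of dendritic cells, and mice without it accumulate granulocytes. C/EBPalpha is a basic leucine zipper factor that granulocyte-monocyte progenitors need, and it switches on many granule protein genes. MHC class II molecules present peptides on dendritic cells, macrophages and B cells, whereas the granule proteins are made in waves while neutrophils mature, primary granules first and secondary and tertiary granules later.

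The IRF8 arrays and the C/EBPalpha arrays differed in overall brightness before scaling. Processed signals had a 75th percentile of 367.0 and 368.6 with IRF8, 218.1 and 214.6 with C/EBPalpha, and 460.1 and 445.2 with empty vectors, and each array was divided by its own. Signals are printed on a common scale of 271 (the geometric mean of the 8 percentiles), differences are in log2 units as IRF8 minus C/EBPalpha with their standard error (SE), and n is 2 arrays a group. The 2 arrays of a group correlated at 0.998 with IRF8 and 0.996 with C/EBPalpha, and arrays of different groups at 0.946 to 0.947. The IRF8 arrays lay in the second slide column and the C/EBPalpha arrays in the first, so position on the slide and factor cannot be told apart. The labels speak of separate experiments, but replicate numbers did not pair the arrays, and p-values measure the spread between these arrays.

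The arrays did not check which factor a group had received. The 1 probe for Irf8 had processed signals of 13.02 and 11.4 with IRF8, 2.32 and 2.44 with C/EBPalpha and 13.04 and 6.76 with empty vectors. The Cebpa probe read 3.98 and 3.101 with IRF8, 3.49 and 3.18 with C/EBPalpha and 3.52 and 3.39 with empty vectors. Neither was well above background on any 32Dcl.3 array, although the same Irf8 probe was bright in sorted progenitors, so both groups go by their labels.

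The cells had the profile of a myeloid line in every group. All 10 markers of 32Dcl.3 as a myeloid progenitor (among them Mpo, Elane, Spi1 and Csf2rb) were well above background with IRF8, with C/EBPalpha and with empty vectors. Their summed signal was 90570 and 90460 with IRF8, 779700 and 767800 with C/EBPalpha, and 185500 and 190700 with empty vectors. Of 10 monocyte-type markers 7 were well above background with IRF8 and 6 with C/EBPalpha, and Cx3cr1, F13a1 and Ly86 were so in neither. All 4 megakaryocyte markers (Pf4, Ppbp, Itga2b and Gp9) were well above background with IRF8 and 3 of them with C/EBPalpha. Their summed signal was 7282 and 7089 with IRF8, 2686 and 2711 with C/EBPalpha, and 10170 and 9975 with empty vectors, and their part in the results was not tested. Of 12 granulocyte-type markers 11 were well above background with IRF8 and 12 with C/EBPalpha. The remaining marker sets were incomplete. Not well above background in either group were Pax5 and Ebf1 (B cells), Ncr1 and Tcf7 (T and NK cells) and Alas2 (erythroid). Nor were Fcer1a and Ms4a2 (mast cells) and Col3a1 (fibroblasts). Both groups had Vpreb1 (B cells), Cd3d, Cd3e and Lck (T and NK cells) and Hba-a1 and Klf1 (erythroid) well above background on both arrays. The same held for Cpa3, Mcpt8 and Gata2 (mast cells) and Col1a2, Thy1 and Pdgfrb (fibroblasts). Of the 2 factors, Cd79a was so on both arrays with IRF8 alone, and Col1a1 with C/EBPalpha alone.

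The 2 factors left the line with widely different transcriptomes. Of 13337 genes tested, 10208 (76.5%) passed an adjusted p of 0.05, 6491 (48.7%) higher and 3717 (27.9%) lower with IRF8. A change of at least 2-fold was called for 1299 genes higher (9.74%) and 1165 genes lower (8.74%) with IRF8. The large differences lay on the C/EBPalpha side. At least 8-fold, 66 genes were higher with IRF8 and 243 higher with C/EBPalpha, and at least 32-fold the counts were 16 and 75. These counts include genes undetected in the lower group, whose fold rests on values near background. Of the 2-fold calls, 155 of the 1299 higher and 212 of the 1165 lower were genes detected with 1 factor only. The IRF8 arrays both lay above the C/EBPalpha arrays for 53.8% of genes and both below for 34.5%, so arrays that do not overlap are the rule here.

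The balance of higher and lower calls depended on the scale. Genes higher with IRF8 made up 52.7% of the 2-fold calls with the 75th percentile of all probes, 78.2% with the array median, 33.2% with the 75th percentile over probes well above background, 62.0% with normexp background correction and 41.9% without a filter on dim probes. The median difference over all genes was 0.16 with the first of these, 0.51 with the array median and -0.048 with the detected-probe percentile. List medians below are to be read against 0.16, and the sign of a small difference can turn with the scale. List counts are to be read against the shares of all genes. These were 9.74% at least 2-fold higher and 8.74% lower with IRF8, and 48.7% called higher and 27.9% lower at any size.

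**Figure D1:**
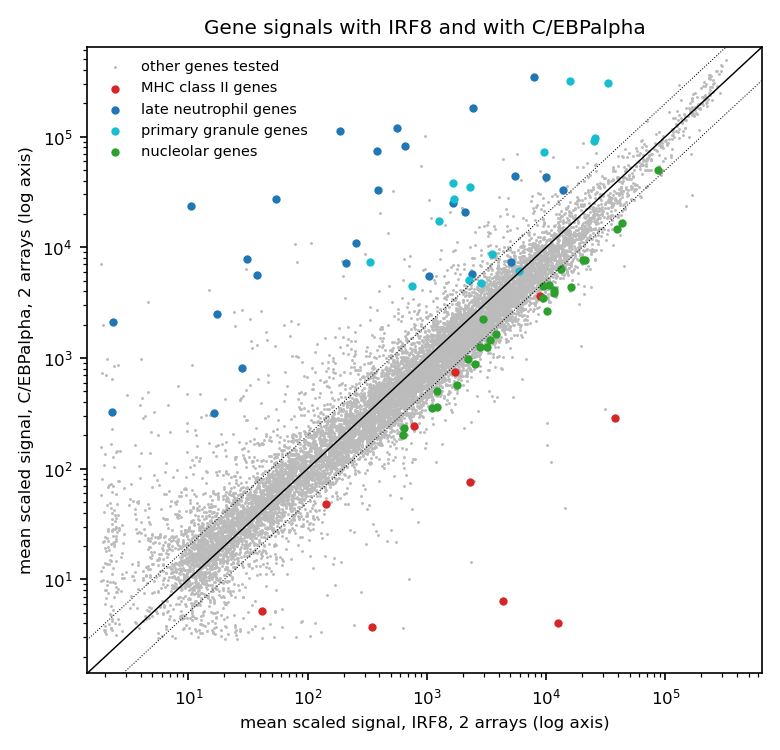
Mean signal of each gene tested with IRF8 (x axis) and with C/EBPalpha (y axis), 2 arrays each, scaled to a common 75th percentile, on log axes. The solid line marks equal signal and the dotted lines a 2-fold difference, the 10 MHC class II genes (red) lie on the IRF8 side and the late neutrophil genes (dark blue) on the C/EBPalpha side.

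MHC class II genes were higher with IRF8. All 10 members tested were at least 2-fold higher with IRF8, with a median difference of 3.95 (3.14 with undetected values at their bound). With empty vectors as the base, 10 of the 10 were at least 2-fold higher with IRF8 (3.57% of all genes) and 1 with C/EBPalpha (11.2%). The 250 bases upstream of the start of H2-Eb1, the beta chain of the I-E molecule (chr17:34305617-34305866, plus strand, RefSeq, GRCm38.p6), and of Ctss, the protease cathepsin S (chr3:95526536-95526785, plus strand), are shown because these genes rose strongly with IRF8. Capitals mark matches to an interferon-stimulated response element core (GAAA, any 2 bases, GAAA), an ETS-IRF composite element (GGAA, any 2 bases, GAAA), TTGCGCAA or TTGCNNAA (C/EBP sites), searched on both strands.
H2-Eb1: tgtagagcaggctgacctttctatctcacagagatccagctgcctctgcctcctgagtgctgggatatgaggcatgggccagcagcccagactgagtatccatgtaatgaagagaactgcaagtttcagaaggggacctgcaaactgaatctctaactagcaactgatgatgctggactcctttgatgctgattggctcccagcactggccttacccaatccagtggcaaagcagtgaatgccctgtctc
Ctss: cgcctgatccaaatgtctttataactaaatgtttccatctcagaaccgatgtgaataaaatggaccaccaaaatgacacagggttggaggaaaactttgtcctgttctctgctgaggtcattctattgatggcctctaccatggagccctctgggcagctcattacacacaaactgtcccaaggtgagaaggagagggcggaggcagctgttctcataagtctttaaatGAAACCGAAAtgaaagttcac
The Ctss window held 1 match, to the response element core, at base -21 from the start, and the H2-Eb1 window held none, which says only that these letters are not in it. Most other windows searched of genes higher with IRF8 held none either. Those of H2-Aa, H2-DMa, Ccl17, Cst3 and Itgax held no match to any of the motifs. A window of Bcl6 held a match to the ETS-IRF composite element, at base -28.

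H2-Eb1 was bright on both IRF8 arrays, with signals of 12488 and 12559.95, against 3.54 and 4.53 with C/EBPalpha and 10.3 and 3.304 with empty vectors. It was not well above background with C/EBPalpha, and the difference was at least 861-fold (adjusted p = 3.35e-11). H2-Ab1, the beta chain of I-A, had 4287 and 4391 with IRF8, against 7.55 and 5.47 with C/EBPalpha, at least 298-fold higher. H2-Aa, its alpha chain, read 342 and 355 with IRF8 and 3.61 and 3.83 with C/EBPalpha, a difference of at least 23.9-fold. For each of these chains the signal with C/EBPalpha was that of an undetected probe on both arrays.

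Cd74, the invariant chain that escorts class II molecules, had signals of 37096 and 37771 with IRF8, 273 and 303 with C/EBPalpha and 275 and 278 with empty vectors. The difference was 7.02 ± 0.042, or 130.1-fold (adjusted p = 2.34e-17). The C/EBPalpha arrays stood at the level of the empty-vector arrays, far below both IRF8 arrays. H2-DMa, a subunit of the DM molecule that loads peptide, had 2281 and 2276 with IRF8, against 66.9 and 86.1 with C/EBPalpha, a difference of 4.91 ± 0.093. Its partner H2-DMb1 differed less, with 9002 and 8694 with IRF8 and 3492 and 3779 with C/EBPalpha. Ciita, the coactivator that switches class II genes on, was low in all groups, with 146 and 142 with IRF8, 48.1 and 47.9 with C/EBPalpha and 20.8 and 27.96 with empty vectors. Its difference of 1.58 ± 0.13 passed the test, and the arrays of the 2 factors did not overlap. H2-Oa and H2-Ob, which form the DO modulator of peptide loading, were 1.18 and 1.70 higher.

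Genes of the endosome where class II molecules meet their peptides were split. Of 30 lysosomal proteases and cystatins tested, 7 were at least 2-fold higher and 2 lower with IRF8. At any size 8 were called higher and 16 lower, with a median of -0.21. Ctss, which trims the invariant chain, had 10040.3 and 10097 with IRF8, 272 and 242 with C/EBPalpha and 179 and 198 with empty vectors. It was 39.3-fold higher with IRF8 (5.30 ± 0.056, adjusted p = 3.23e-15). Cst3, the cysteine protease inhibitor cystatin C, had 147738 and 152025 with IRF8, against 23631 and 23844 with C/EBPalpha. Psap, the precursor of the saposins, followed with a difference of 1.44 ± 0.029, and Ctsz, another cathepsin, with 1.296 ± 0.026. The aspartic protease gene Ctsd went the other way, with 15015 and 14840.2 with IRF8, against 35793 and 36079 with C/EBPalpha. Both IRF8 arrays thus lay above the C/EBPalpha arrays for Ctss and Cst3 and below them for Ctsd.

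Among single genes detected on all 4 arrays, Ccl17 had the largest difference on the IRF8 side. Ccl17, a chemokine of dendritic cells that draws T cells bearing CCR4, had 14335 and 14307 with IRF8, 46.4 and 42.1 with C/EBPalpha and 170.3 and 169 with empty vectors. It was 324-fold higher with IRF8 than with C/EBPalpha (8.34 ± 0.045, adjusted p = 8.17e-18), with the empty-vector arrays in between. Il2ra, the alpha chain of the interleukin-2 receptor, had 10121 and 10190.1 with IRF8, against 153 and 173 with C/EBPalpha. Itgax, the CD11c integrin that marks many dendritic cells, read 823 and 852 with IRF8, 36.2 and 30.5 with C/EBPalpha and 141 and 145 with empty vectors. For Itgax the C/EBPalpha arrays lay below the empty-vector arrays and the IRF8 arrays above them. The dendritic cell genes as a list were divided: of 13 tested, 3 were at least 2-fold higher and 3 lower with IRF8, 5 were called in each direction, and the median was -0.44.

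Other genes of the top 10 were beta globin genes, a kallikrein and a hexokinase-like gene. Hbb-bt had 30962 and 31795 with IRF8, 365 and 333 with C/EBPalpha and 3161 and 3245 with empty vectors. Hbb-b2 differed by 6.58 ± 0.084, but the beta globin genes are near-identical copies whose probes may share signal. The erythroid marker Alas2 was not well above background in any of the 3 groups. Klk1b11 had 2429 and 2493 with IRF8, against 72.8 and 81.5 with C/EBPalpha, and Hkdc1 had 467 and 451 against 23.5 and 21.2. 3 receptors or adaptors were detected with IRF8 and not with C/EBPalpha. Adora3, an adenosine receptor, was at least 48.7-fold higher, P2ry6, a receptor for uridine diphosphate, at least 42.99-fold, and Scimp, a transmembrane adaptor of antigen-presenting cells, at least 19.1-fold.

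**Figure D2:**
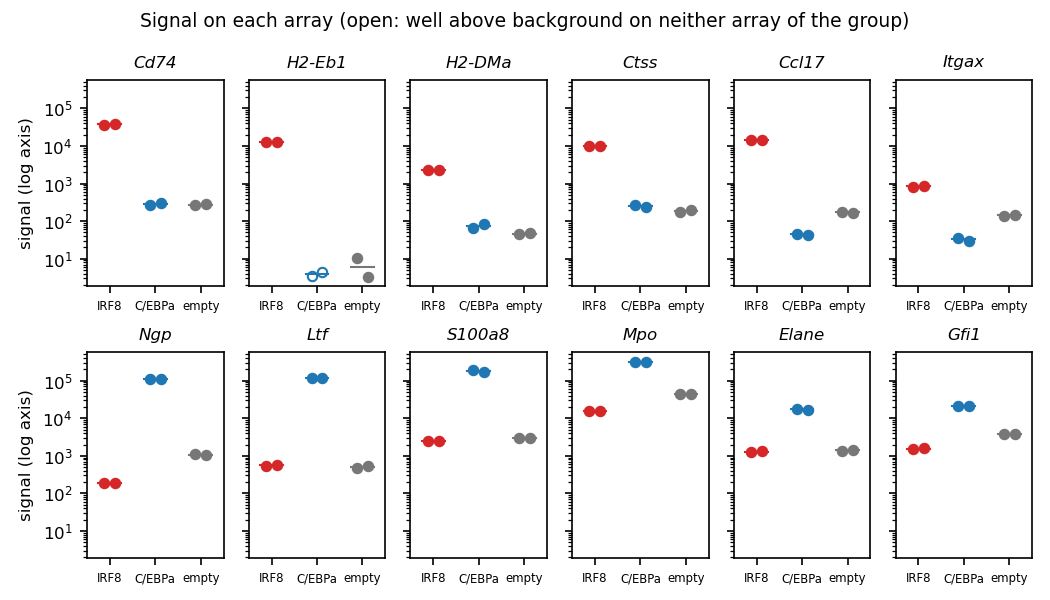
Signal of 12 genes on each array (log axis, scaled to a common 75th percentile) with IRF8 (red), C/EBPalpha (blue) and empty vectors (grey), bars at the geometric mean of 2 arrays. The upper row shows genes higher with IRF8 and the lower row genes higher with C/EBPalpha, and in no panel do the IRF8 and C/EBPalpha points overlap.

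Genes of the late neutrophil programme were the counterpart on the C/EBPalpha side. Of 26 secondary granule, tertiary granule and late neutrophil genes tested, 25 were at least 2-fold lower with IRF8 and the remaining gene, Ifitm6, was called lower by less (-0.54 ± 0.029). The median difference of the list was -5.84 (-5.44 with undetected values at their bound). Against empty vectors, 3 of the 26 were at least 2-fold higher and 9 lower with IRF8 (1.53% of all genes were lower), and 25 were higher with C/EBPalpha. The 250 bases upstream of Ngp (chr9:110419558-110419807, plus strand), Ltf (chr9:111019042-111019291, plus strand), Mmp8 (chr9:7558179-7558428, plus strand) and Lcn2 (chr2:32387740-32387989, minus strand) are shown as examples (RefSeq, GRCm38.p6), with capitals as above.
Ngp: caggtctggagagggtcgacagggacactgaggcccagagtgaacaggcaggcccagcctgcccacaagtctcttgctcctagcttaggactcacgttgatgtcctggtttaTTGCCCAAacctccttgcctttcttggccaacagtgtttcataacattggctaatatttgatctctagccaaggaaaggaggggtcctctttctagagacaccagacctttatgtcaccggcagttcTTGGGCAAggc
Ltf: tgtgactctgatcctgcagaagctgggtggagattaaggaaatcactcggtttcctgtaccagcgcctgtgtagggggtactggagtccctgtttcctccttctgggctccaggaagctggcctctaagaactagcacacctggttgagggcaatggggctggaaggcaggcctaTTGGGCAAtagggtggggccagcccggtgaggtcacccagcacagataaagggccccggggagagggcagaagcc
Mmp8: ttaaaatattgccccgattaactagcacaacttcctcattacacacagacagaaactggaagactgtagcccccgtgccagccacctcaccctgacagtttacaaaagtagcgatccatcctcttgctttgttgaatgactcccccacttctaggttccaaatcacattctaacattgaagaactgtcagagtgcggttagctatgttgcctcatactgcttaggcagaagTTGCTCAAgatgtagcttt
Lcn2: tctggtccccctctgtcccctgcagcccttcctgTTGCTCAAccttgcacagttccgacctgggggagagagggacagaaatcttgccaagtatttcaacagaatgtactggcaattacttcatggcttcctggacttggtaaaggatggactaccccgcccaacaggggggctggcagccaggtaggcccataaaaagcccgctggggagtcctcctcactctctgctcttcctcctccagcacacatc
Each of the 4 windows held at least 1 match to TTGCNNAA, at bases -138 and -11 in Ngp, -75 in Ltf, -19 in Mmp8 and -216 in Lcn2, and none held TTGCGCAA or an IRF motif. Other windows searched of genes higher with C/EBPalpha were divided. Those of Retnlg, S100a9 and Ms4a3 and a window of Gfi1 held a match to TTGCNNAA. The windows of Camp, S100a8, Mpo and Elane held no match to any of the motifs.

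Ngp, a neutrophil granule protein, had 185 and 189 with IRF8, 112345 and 112885 with C/EBPalpha and 1096 and 1027 with empty vectors. It was 603-fold higher with C/EBPalpha than with IRF8, a difference of -9.24 ± 0.035 (adjusted p = 6.46e-19). The IRF8 arrays also lay below those of empty vectors, by -2.51 ± 0.035. Ltf, the iron binder lactoferrin, had 535 and 579 with IRF8, against 119074 and 118209 with C/EBPalpha and 478 and 534 with empty vectors. For Ltf the IRF8 arrays stood close to the empty-vector arrays, and both lay far below the C/EBPalpha arrays.

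Wfdc21, a whey acidic protein family member, had 56.6 and 53.02 with IRF8, 26737 and 27765 with C/EBPalpha and 337 and 346 with empty vectors. Lcn2, which sequesters bacterial siderophores, had 649.7 and 668 with IRF8, against 83164 and 82726 with C/EBPalpha. Camp, the precursor of the cathelicidin peptide, read 35.6 and 39.6 with IRF8 and 5477 and 5646 with C/EBPalpha. In each of the 3 the IRF8 arrays were the lowest of the groups and the C/EBPalpha arrays the highest. S100a8 and S100a9, the subunits of calprotectin, were 74.9-fold and 43.7-fold higher with C/EBPalpha. S100a9 was among the brightest genes of those arrays, with 341552 and 345517, against 7929 and 7778 with IRF8.

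Mmp8, neutrophil collagenase, and Retnlg, a resistin-like protein, were not well above background with IRF8 or with empty vectors. Mmp8 read 2.504 and 2.197 with IRF8, against 2180.4 and 2029 with C/EBPalpha, at least 228-fold lower with IRF8. Retnlg was at least 2244-fold lower with IRF8, with 10.8 and 10.4, against 23669 and 23941 with C/EBPalpha. The stefin genes Stfa1 and Stfa3, cysteine protease inhibitors, differed by -7.61 ± 0.029 and -7.96 ± 0.10, though these copies are alike in sequence and may share signal. The chitinase-like Chil1 fell by 7.18 on the log2 scale. Cxcr2, a chemokine receptor of neutrophils, had 24.1 and 33.1 with IRF8, against 814 and 822 with C/EBPalpha. The smallest differences past 2-fold in the list were Itgam, the CD11b integrin (-1.25 ± 0.045), and Padi4, which citrullinates histones (-1.26 ± 0.036). Over the 3 probes of Itgam the difference lay between -1.25 and -0.55.

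Genes outside the granule lists were also among the 10 largest differences. Ankrd22 had 15.3 and 14.2 with IRF8, against 4189 and 4096 with C/EBPalpha. Mogat2, an acyltransferase of triacylglycerol synthesis, had 29.1 and 31.4 with IRF8, against 6264 and 6357 with C/EBPalpha. Hsd11b1, which regenerates active glucocorticoid, was 137-fold higher with C/EBPalpha. Mgst1, a microsomal glutathione transferase, was detected with C/EBPalpha and not with IRF8, a difference of at least 772-fold, as were Prom1 (CD133, at least 348-fold), Cd1d1, which presents lipids (at least 217-fold), and Gm9733 (at least 106-fold).

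Primary granule genes differed less, but in the same direction. Of 15 tested, 13 were at least 2-fold lower with IRF8, and Ctsc did not pass the test (-0.051, adjusted p = 0.132). The median was -2.93. Mpo, myeloperoxidase, had 15629 and 15764 with IRF8, 321358 and 317683 with C/EBPalpha and 44008 and 45487 with empty vectors. Its difference of -4.35 ± 0.033 was made of both a fall with IRF8 (-1.51 ± 0.033 against empty vectors) and a rise with C/EBPalpha (2.84 ± 0.033). Elane, neutrophil elastase, had 1230.1 and 1309 with IRF8, against 17306 and 17074 with C/EBPalpha and 1384 and 1457 with empty vectors. For Elane the IRF8 arrays lay near the empty-vector arrays. Prtn3 and Ctsg, other serine proteases of the same granules, were lower by -4.01 ± 0.036 and -3.19 ± 0.030. Ms4a3, a membrane protein of granulocyte-monocyte progenitors, differed most in the list (-4.52 ± 0.036). Lyz2, a lysozyme of monocytes and neutrophils, differed by -3.92 ± 0.029. Lyz1 differed by -2.93 ± 0.028, but it is a near-identical copy of Lyz2 and the probes may share signal. Of the 8 members of the phagocyte NADPH oxidase and its partners, 0 were at least 2-fold higher and 3 lower with IRF8, among them Cybb, its catalytic subunit, at least 15.8-fold.

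Transcription factors of granulocytes split 1 higher against 5 lower at 2-fold among 15 tested, with a median of -0.31 (0.043 with the array median as scale). Gfi1, a repressor needed for neutrophils, had 1505 and 1606 with IRF8, 21003 and 20802 with C/EBPalpha and 3808 and 3752 with empty vectors. The IRF8 arrays lay below empty vectors and the C/EBPalpha arrays above, and the difference was -3.75 ± 0.040 (adjusted p = 3.23e-15). Cebpe, which drives secondary granule genes, had 6083 and 6203 with IRF8, against 39944 and 41317 with C/EBPalpha and 6562 and 6709.7 with empty vectors. Cebpd, a family member, differed by -2.56 ± 0.038, and Mxd1, a partner of MAX that opposes MYC, by -3.18 ± 0.052. Trib1, a pseudokinase that promotes degradation of C/EBPalpha, had 64.99 and 61.5 with IRF8, against 2032 and 1936 with C/EBPalpha. Rara, the retinoic acid receptor alpha, was the 1 factor of this list at least 2-fold higher with IRF8 (1.08 ± 0.035).

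Transcription factors of monocytes and dendritic cells split 5 higher against 1 lower at 2-fold among 18 tested (median 0.58). Bcl6, a repressor that conventional dendritic cells need, had 2030.5 and 2095 with IRF8, 236 and 229.9 with C/EBPalpha and 103 and 103 with empty vectors. Irf5, a factor of the inflammatory response in macrophages, had 1721 and 1825 with IRF8, against 486 and 473 with C/EBPalpha and 803 and 824 with empty vectors. The IRF8 arrays were the highest of the 3 groups for both genes, while the C/EBPalpha arrays lay above empty vectors for Bcl6 and below for Irf5. Pou2f2, Nfkb1 and Id2 were higher by 1.63 ± 0.13, 1.39 ± 0.053 and 1.04 ± 0.030. Irf7, an interferon pathway factor, was lower with IRF8 (-1.08 ± 0.14). Klf4, a factor of monocyte fate, did not pass the test, with 118 and 114 with IRF8, 124 and 130.4 with C/EBPalpha and 105 and 114 with empty vectors. Spi1, which encodes PU.1, was lower with IRF8 by less than 2-fold (-0.70 ± 0.039), and both factors were above empty vectors.

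Genes of mature monocytes and macrophages were divided evenly at 2-fold, with 6 higher and 6 lower with IRF8 among 21 tested. At any size 13 were called higher and 7 lower. The median was 0.38, and -0.33 over the members present without a filter on dim probes. Csf1r, the receptor of macrophage colony-stimulating factor, had 20788 and 20966 with IRF8, 3942 and 3578 with C/EBPalpha and 1716 and 1713 with empty vectors. Its difference was 2.47 ± 0.039 with the brightest probe and between 0.50 and 3.33 over its 3 probes. Aif1, an actin-bundling protein of macrophages, and Adgre1, the F4/80 antigen, were higher by 2.01 ± 0.040 and 2.01 ± 0.036. Mpeg1, a pore-forming protein of phagocytes, had 4869 and 5155 with IRF8, 1905 and 1871 with C/EBPalpha and 108 and 112 with empty vectors. Both factors thus lay well above empty vectors for Mpeg1, IRF8 further. Ccr2, the receptor that brings monocytes out of the marrow, was dim and higher by 1.47 ± 0.23. On the other side stood Cd14, the lipopolysaccharide co-receptor (-1.34 ± 0.078), Fcgr4, an activating Fc receptor (-3.29 ± 0.085), Ly6c1 (-1.79 ± 0.036, and -3.26 with its other probe) and Cd36, a scavenger receptor that was at least 5.21-fold lower with IRF8.

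Pattern recognition genes followed no single direction, and most Fc receptors, TREMs and adaptors were lower with IRF8. Of 25 pattern recognition genes tested, 5 were at least 2-fold higher and 8 lower with IRF8, beside 9.74% and 8.74% of all genes. Tlr12, a sensor of profilin, had 776 and 733 with IRF8, 44.5 and 42.5 with C/EBPalpha and 239 and 247 with empty vectors. Clec4n, the fungal receptor dectin-2, had 5248 and 5384 with IRF8, against 447 and 445 with C/EBPalpha. For Tlr12 the C/EBPalpha arrays were the lowest of the 3 groups, and for Clec4n the empty-vector arrays, at 68.3 and 73.3. Nod1, which senses peptidoglycan, was lower with IRF8 (-3.14 ± 0.059), as were Tlr4 (-1.44 ± 0.060) and Tlr13 (-1.64 ± 0.069). Of 21 Fc receptors, TREMs and adaptors, 2 were at least 2-fold higher and 7 lower. At any size 3 of these were called higher and 15 lower with IRF8, with a median of -0.70. Trem3 had 26.2 and 22.3 with IRF8, 2639 and 2611 with C/EBPalpha and 190.4 and 181 with empty vectors. Trem2, a lipid receptor of macrophages, was higher with IRF8 (1.28 ± 0.058), and Fcgr3 was lower (-1.42 ± 0.042).

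Cytokines and their receptors were mostly lower with IRF8 on the ligand side. Of 19 chemokines and inflammatory cytokines, 1 (Ccl17) was at least 2-fold higher and 9 were lower, with a median of -0.94. Tnfsf13b, the B cell survival factor BAFF, had 32.5 and 35.3 with IRF8, against 1216 and 1272 with C/EBPalpha. Ccl3 and Ccl4, inflammatory chemokines, were lower by -2.84 ± 0.045 and -2.19 ± 0.042, and Ccl6 by -1.04 ± 0.030. Of 27 myeloid cytokine receptors 6 were at least 2-fold higher and 3 lower. Beside Csf1r the higher ones included Il6ra, the interleukin-6 receptor (1.13 ± 0.048), and Il4ra (1.10 ± 0.041), and the lower ones Csf2ra, the alpha chain of the receptor for granulocyte-macrophage colony-stimulating factor (-1.71 ± 0.039). Csf3r, the receptor of granulocyte colony-stimulating factor, was within 2-fold, with 48126 and 47474 with IRF8 and 65712 and 63994 with C/EBPalpha. Of 16 chemoattractant receptors 4 were higher and 5 lower, with C3ar1 and Ccr6 highest (2.66 ± 0.17 and 1.91 ± 0.39). With normexp background correction 0 were at least 2-fold higher, and C3ar1 and Ccr6 differed by 0.77 and 0.54.

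Interferon-stimulated genes did not differ as a group between the 2 factors. Of 34 antiviral genes tested, 5 were at least 2-fold higher and 5 lower with IRF8, and the median of 0.15 lay at that of all genes. Compared with empty vectors, 11 were at least 2-fold higher and 3 lower with IRF8 (3.57% and 1.53% of all genes). With C/EBPalpha 10 were higher and 2 lower (11.2% and 12.2% of all genes). The list medians against empty vectors were 0.52 with IRF8 and 0.49 with C/EBPalpha, beside -0.031 and -0.14 for all genes. Ifi27l2a was the highest, with 4080.4 and 4231 with IRF8, against 839.7 and 779 with C/EBPalpha. Samd9l, which restricts poxviruses, had 369 and 402 with IRF8, against 2765 and 2703 with C/EBPalpha and 863 and 859 with empty vectors. Oas2, an oligoadenylate synthetase, and Ddx58, the RNA sensor RIG-I, were lower with IRF8 by -2.75 ± 0.27 and -1.94 ± 0.040. Both IRF8 arrays lay below the empty-vector arrays for Samd9l, Oas2 and Ddx58. Among 15 interferon-inducible GTPases, Gbp3 (3.19 ± 0.12) and Gbp6 (-3.08 ± 0.15) marked the 2 ends. Of 21 genes of class I presentation and the immunoproteasome, 4 were at least 2-fold higher and 1 lower with IRF8. Psmb10 and Psmb8, catalytic subunits of the immunoproteasome, were higher by 1.75 ± 0.028 and 1.72 ± 0.033. For Psmb10 the IRF8 arrays stood at the level of empty vectors, with 25721 and 25619 with IRF8 and 26228 and 25848 with empty vectors, and the C/EBPalpha arrays lay below, at 7564 and 7721.

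**Figure D3:**
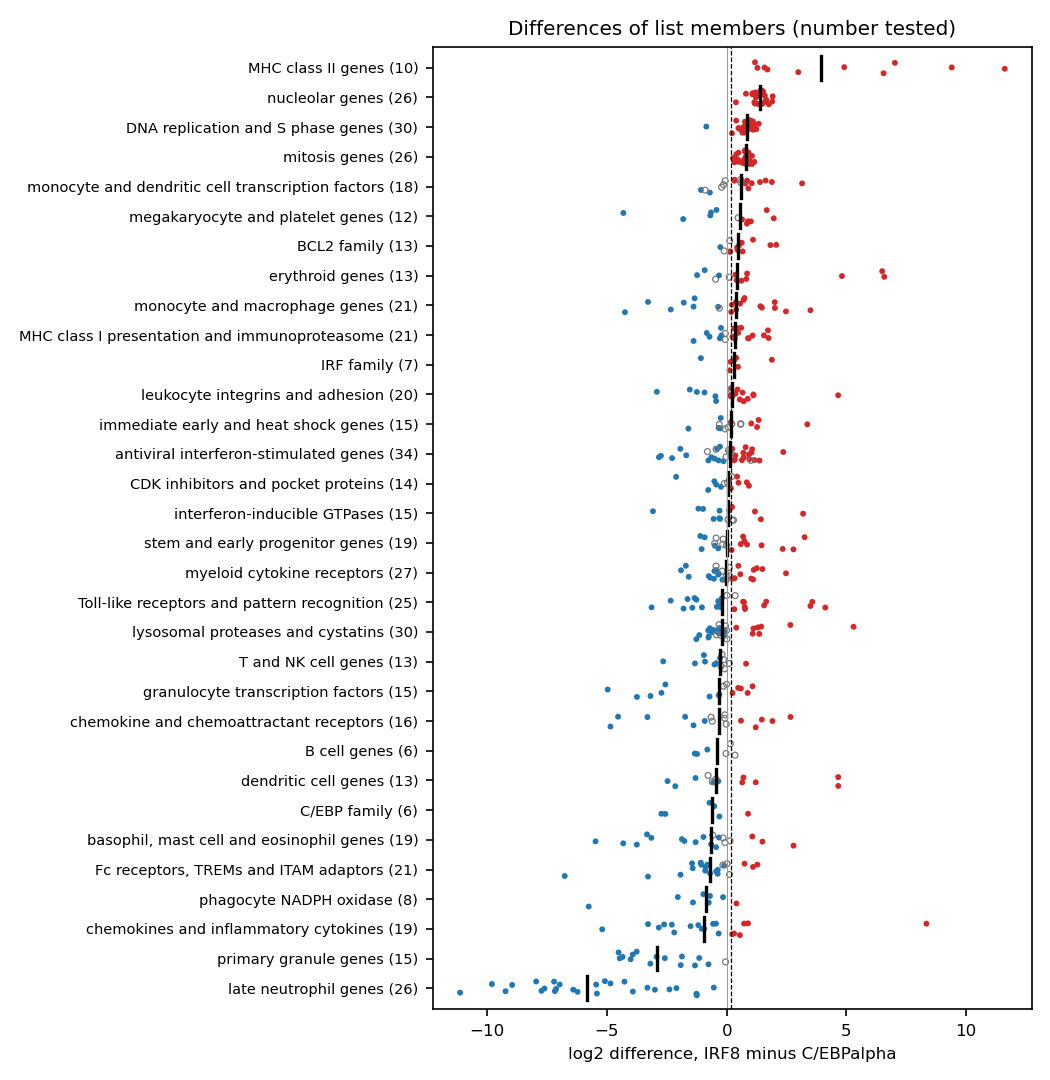
Difference of each tested member of the gene lists, in log2 units, IRF8 minus C/EBPalpha, with the number tested in brackets, filled red or blue where the adjusted p was under 0.05 and open otherwise. Black bars are list medians and the dashed line is the median of all genes tested, 0.16, and late neutrophil genes lie lowest (-5.84) and MHC class II genes highest (3.95).

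Genes of growth were higher with IRF8 than with C/EBPalpha. Of 26 nucleolar and ribosome assembly genes, 24 were at least 2-fold higher with IRF8 and 26 were called higher, with a median of 1.41. Nolc1, a nucleolar chaperone, had 9993 and 10308 with IRF8, 2679 and 2681 with C/EBPalpha and 12242 and 12076 with empty vectors. Nop2, a methyltransferase of ribosomal RNA, had 16227 and 16338 with IRF8, 4447 and 4283 with C/EBPalpha and 17812 and 17465 with empty vectors. The IRF8 arrays lay close to those of empty vectors and the C/EBPalpha arrays far below, and over the list the median against empty vectors was -0.26 with IRF8 and -1.62 with C/EBPalpha. Myc, a factor that drives ribosome production, had 3331 and 3663 with IRF8, 1875 and 1932 with C/EBPalpha and 4994 and 4726 with empty vectors.

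Of 30 genes of DNA replication and S phase, 29 were called higher with IRF8, beside 48.7% of all genes, with a median of 0.87. The number at least 2-fold higher was 7, and ran between 2 and 24 with other scales. Of 26 mitosis genes 26 were called higher, with a median of 0.79, and 3 were at least 2-fold higher (between 0 and 18 with other scales). Rrm2, a ribonucleotide reductase subunit, had 14318 and 15439.8 with IRF8, 5962 and 5799 with C/EBPalpha and 15487 and 15365 with empty vectors. Ccnb1, a mitotic cyclin, had 5999 and 5949 with IRF8, 2686 and 2684 with C/EBPalpha and 6552 and 6592 with empty vectors. Here too the IRF8 arrays were near the empty-vector arrays. The anti-apoptotic gene Bcl2 had 3161 and 3347 with IRF8, against 760.2 and 791 with C/EBPalpha and 3800.3 and 3468 with empty vectors. In bulk RNA, fewer cells of a kind and less RNA per cell cannot be told apart, for these genes as for every group above.

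Genes of early progenitors and of the megakaryocyte lineage included several that were low with C/EBPalpha. Of 19 stem and early progenitor genes 4 were at least 2-fold higher and 2 lower with IRF8, and of 12 megakaryocyte and platelet genes 3 were higher and 2 lower. Gata2, a factor of stem cells and of mast cells, had 6987 and 6621 with IRF8, 1002 and 968 with C/EBPalpha and 7983 and 7947 with empty vectors. Gfi1b, a repressor of erythroid and megakaryocyte cells, had 1625 and 1639 with IRF8, 308 and 338 with C/EBPalpha and 2044 and 2014 with empty vectors. For both the IRF8 arrays stayed near the level of empty vectors and the C/EBPalpha arrays were several-fold lower. Cd34, a sialomucin of progenitors, differed by 3.25 ± 0.095 with its brighter probe and by 0.83 with the other. Itga2b, the CD41 integrin, was higher with IRF8 (1.96 ± 0.031). Of 19 basophil, mast cell and eosinophil genes, 3 (among them Gata2) were at least 2-fold higher and 8 lower with IRF8. Epx, eosinophil peroxidase, had 15.2 and 15.4 with IRF8, 302 and 311 with C/EBPalpha and 75.3 and 75.02 with empty vectors. Mcpt8, a protease of basophils, differed by -3.33 ± 0.038, and Gata1 by -1.77 ± 0.22, with Gata1 highest in empty-vector cells, at 179 and 195.

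Against empty vectors, C/EBPalpha changed more genes than IRF8 did. At least 2-fold, 476 genes were higher (3.57%) and 204 lower (1.53%) with IRF8, and 1498 were higher (11.2%) and 1627 lower (12.2%) with C/EBPalpha. These comparisons share the empty-vector arrays. MHC class II genes had a median of 5.01 with IRF8 and 0.70 with C/EBPalpha, and late neutrophil genes -0.50 with IRF8 and 5.28 with C/EBPalpha. Monocyte and macrophage genes had similar medians, 0.56 with IRF8 and 0.43 with C/EBPalpha. Relative to empty vectors, class II genes thus moved further in IRF8 cells, and the granule and nucleolar lists further in C/EBPalpha cells.

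**Figure D4:**
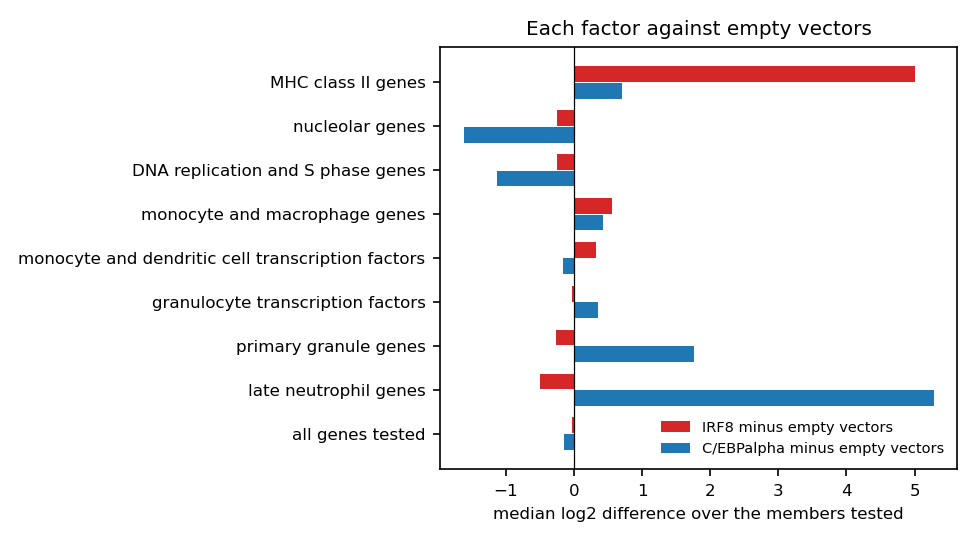
Median log2 difference against empty vectors of 8 gene lists and of all genes tested, for IRF8 (red) and C/EBPalpha (blue), each from 2 arrays against the same 2 empty-vector arrays. MHC class II genes have a median of 5.01 with IRF8 and 0.70 with C/EBPalpha, late neutrophil genes -0.50 and 5.28.

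Promoter windows of 300 bases (250 before the start and 50 after, RefSeq, GRCm38.p6) were found for 1060 of the 1299 genes at least 2-fold higher with IRF8 and for 918 of the 1165 lower ones. TTGCNNAA, searched on both strands and including TTGCGCAA, was in 8.37% of windows of the genes higher with IRF8, in 15.0% of the genes higher with C/EBPalpha and in 9.16% of windows of all genes tested. Among genes at least 4-fold higher the share was 20.57% with C/EBPalpha and 13.97% with IRF8. Among genes at least 8-fold higher with C/EBPalpha the share was 23.01% of 226 windows, and among those at least 8-fold higher with IRF8 it was 11.4% of 70 windows. The response element core was in 2.76% of windows of genes at least 2-fold higher with IRF8 and 7.82% of those at least 4-fold higher (14 of 179 windows). With C/EBPalpha these shares were 4.33% and 5.03%, and 3.19% over all genes tested. The ETS-IRF composite element was in 1.46% (2-fold) and 1.12% (4-fold, 2 of 179 windows) of windows on the IRF8 side. It was in 2.51% of windows of genes at least 2-fold higher with C/EBPalpha and 2.36% of all genes tested. These shares describe letters in a window and carry no test.

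The same genes were then read in sorted progenitors, on arrays that the 32Dcl.3 comparison did not use. The Irf8 probe had processed signals of 26209.6 and 26731 in Irf8KO cMoPs, against 91143 and 88224 in WT cMoPs, and 12176 and 11718 in Irf8KO MDPs, against 19914 and 20224 in WT MDPs, lower in each but not absent, and whether it lies in the deleted part is not known here. Of 1094 genes at least 2-fold higher with IRF8 and tested in both systems, 73.5% were called lower in Irf8KO cMoPs and 5.94% higher, beside 31.2% and 22.1% of all 11206 genes tested in both. Of 773 genes at least 2-fold higher with C/EBPalpha, 64.7% were called higher in Irf8KO cMoPs and 8.80% lower. In MDPs the first set was called lower for 61.6% and higher for 9.05%, and the second higher for 51.1% and lower for 14.2%, beside 29.0% lower and 22.1% higher of all genes. Most of these changes were small, with medians of -0.35 and 0.57 for the 2 sets in cMoPs and -0.24 and 0.30 in MDPs.

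**Figure D5:**
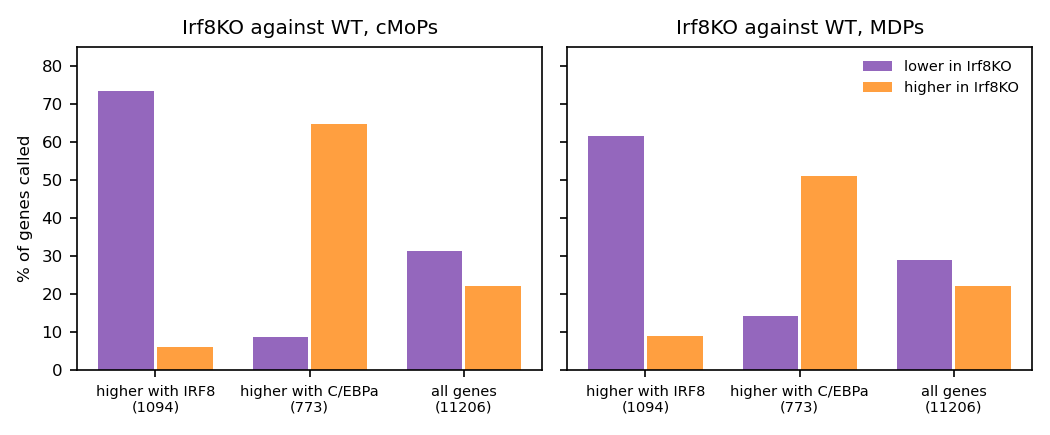
Share of genes called lower (purple) or higher (orange) in Irf8KO than in WT progenitors, in cMoPs (left) and MDPs (right), among genes at least 2-fold higher with IRF8, genes at least 2-fold higher with C/EBPalpha and all genes tested in both systems, with numbers of genes in brackets. In cMoPs 73.5% of the first set were lower and 64.7% of the second higher in Irf8KO.

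Single genes showed the pattern at larger size, with signals here scaled within the progenitor arrays. Ctss had 410.05 and 419 in Irf8KO cMoPs, against 4463 and 4405 in WT cMoPs (-3.42 ± 0.038, adjusted p = 1.01e-12). Irf5 had 62.99 and 55.7 in Irf8KO cMoPs, against 988 and 998 in WT cMoPs. Tlr12 and Aif1 were well above background in WT cMoPs and not in Irf8KO cMoPs, at least 8.67-fold and 70.2-fold lower. H2-DMa was lower in Irf8KO cMoPs (-1.97 ± 0.057), whereas Cd74 did not pass the test there, with 32.8 and 25.7 in Irf8KO and 27.8 and 35.1 in WT. On the other side, S100a8 had 66555 and 67716 in Irf8KO cMoPs, against 3141 and 3219.9 in WT cMoPs. Wfdc21 rose by 5.66 ± 0.072, Lcn2 by 3.35 ± 0.079 and Gfi1 by 2.18 ± 0.045 in Irf8KO cMoPs. Mpo and Elane moved in the same direction at a smaller size: they were -4.35 and -3.76 between the factors in the line and rose in Irf8KO cMoPs by 0.25 ± 0.054 and 0.68 ± 0.046.

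Some genes did not follow. Itgax, higher with IRF8 in the line, read 172 and 66.8 in Irf8KO cMoPs, against 12.5 and 22.5 in WT cMoPs, where it was not well above background. Bcl6 and Id2 were also higher in Irf8KO cMoPs (1.33 ± 0.069 and 2.00 ± 0.092). Klf4, which did not pass the test in the line, had 68.6 and 69.7 in Irf8KO cMoPs, against 2681 and 2648 in WT cMoPs.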

How the data were processed

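The deposited scanner files hold an intensity for each spot, background-subtracted and detrended within the array. The software was Feature Extraction 10.7.3.1 (Agilent) with protocol GE1_107_Sep09 and build mm9, per the file headers. They also hold raw median intensities and 0/1 flags, the other values used here, which the same software wrote per the file headers. The authors' series values are intensity values scaled further between arrays, with software not given in the sources used here. RNA was extracted with an RNeasy Micro Kit and labelled with Cy3, per the labels' protocols.

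From these, log2 of the processed signal minus the array's log2 75th percentile was computed, without spots marked as outliers and with spots of a probe averaged. Of 55681 probes 26762 matched 1 symbol through RefSeq accessions (GRCm38.p6) and 28919 none. A probe was kept if well above background (more than 0.5 of its spots) on both arrays of at least 1 of the 4 32Dcl.3 groups, and the brightest stood for a gene. limma 3.58.1 (R 4.3.3) was fitted to 4 group means over 8 arrays with an intensity trend (4 residual and 7.26 prior degrees of freedom), and two-sided p-values were adjusted (Benjamini and Hochberg) over 13337 genes, threshold 0.05. The progenitor arrays were fitted in the same way on their own (11960 genes), with an interaction term for the knockout effect in cMoPs against MDPs that was added after the data had been seen. A gene well above background in 1 group and on neither array of the other got a lower bound, with each dim value raised to that of the faintest detected probe where that was higher. The number of arrays limits the precision. The steps were tested on simulated data.

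Named were Irf8 and Cebpa, the 10 genes with the largest difference in each direction among genes detected on all 4 arrays, the 6 with the largest bound in each direction, up to 4 called members of each list in each direction with members that define the list, and the cell type markers. A few further members were named as well after their values were seen. The comparison, the gene lists and the markers were chosen with earlier results of these data known. Alternatives were scaling, background correction, filters, a floor for dim values, probe choice, the arrays fitted, no intensity trend, an experiment block and leaving out each array. Normexp used median spot signals, since mean spot signals are not used here. Residual correlations of arrays with the same number ran between -0.065 and 0.054, so the numbers did not pair the arrays. Figures were drawn with matplotlib under Python.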

Additional observations from a re-analysis of the deposited data

Results flagged for a closer look

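Of the 16 genes whose values in Irf8KO and WT progenitors are given above, 10 had an effect of the knockout that differed between cMoPs and MDPs by an interaction term in the limma fit, which called 24.9% of all 11960 progenitor genes (adjusted p under 0.05). Values are the log2 difference Irf8KO minus WT in cMoPs less that in MDPs. Those of Ctss, Irf5, H2-DMa and Klf4 were -1.999 ± 0.054, -2.34 ± 0.12, -0.94 ± 0.081 and -1.36 ± 0.14, a larger fall in cMoPs. Those of S100a8, Wfdc21, Lcn2, Gfi1 and Id2 were 0.62 ± 0.080, 3.04 ± 0.10, 1.88 ± 0.11, 1.21 ± 0.064 and 0.70 ± 0.13, a larger rise in cMoPs. Cd74 differed by 1.27 ± 0.35 (adjusted p = 0.0232), with a difference of -1.37 in MDPs and -0.11 in cMoPs, where 1 of 2 Irf8KO arrays was well above background. MDPs and cMoPs were on different slides, so stage and slide cannot be told apart. Each effect rests on 2 arrays a group.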

How the results depend on the processing

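Named genes that passed the test kept their direction wherever an alternative gave a value, and 1 such call was lost, Csf3r with the array median as scale (adjusted p = 0.158). Ctsc and Klf4, which did not pass, turned sign: Ctsc was 0.297 with the array median (adjusted p = 5.44e-05) and 0.048 with normexp, and Klf4 0.22 with the array median and 0.048 with the authors' values. Both were past the threshold as lower under other settings, Ctsc with the detected-probe percentile, quantile normalization and the authors' values, and Klf4 with that percentile and with normexp. With the array median as scale, 1998 genes were called lower with IRF8 and 2885 were at least 2-fold higher, the monocyte and dendritic cell transcription factors had 8 members at least 2-fold higher, the S phase list 24, and the median of the granulocyte transcription factors was 0.043. With the 75th percentile over detected probes, 782 genes were at least 2-fold higher and 2 of the S phase list. The S phase count was 3 with quantile normalization, 11 with normexp and 2 with the authors' values. Genes at least 2-fold lower numbered 664 with normexp and 745 with probes well above background on all 8 arrays, a filter that left 6 MHC class II genes since the others are undetected with C/EBPalpha. Without a filter 6858 genes were called lower, 1843 at least 2-fold, and the median of the monocyte and macrophage genes was -0.33. Smaller lists moved too. At least 2-fold higher were 18 mitosis genes with the array median, 0 with the detected-probe percentile and 6 with normexp. Chemoattractant receptors had 0 with normexp and with probes detected on all 8 arrays. Antiviral genes had 11 with the array median and 2 with the detected-probe percentile, and dendritic cell genes had 1 with probes detected on all 8 arrays. The cause of the other shifts was not tested. Leaving out 1 array gave 9470 to 10412 genes called, 6158 to 6573 higher and 3312 to 3839 lower, 1295 to 1336 at least 2-fold higher and 1118 to 1313 lower, and between 6 and 8 S phase genes. With experiment number as a replicate block, 10187 genes were called, 1297 at least 2-fold higher and 1168 lower. No fit with slide position was run, as position and group coincide. With 2 arrays a group, signals near background limit what can be compared.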

Other observations

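Cells that received both factors were not part of the direct comparison, and their signals can be set beside it. Cd74 had 119684 and 120493 with both factors, beside 37096 and 37771 with IRF8 alone and 273 and 303 with C/EBPalpha alone. H2-Eb1 read 38398 and 39104 and Csf1r 39645 and 40283 with both factors, above either factor alone. S100a9 had 315642 and 320970.4 with both factors, beside 7929 and 7778 with IRF8 and 341552 and 345517 with C/EBPalpha. Ngp had 16464 and 16148 with both, between 185 and 189 with IRF8 and 112345 and 112885 with C/EBPalpha. Gfi1 had 2902 and 2709 with both factors, below the 3808 and 3752 of empty vectors, whereas C/EBPalpha alone gave 21003 and 20802. Myc was lowest with both factors, at 448 and 447, beside 3331 and 3663 with IRF8 and 1875 and 1932 with C/EBPalpha.

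Lists not described above were mixed, and their counts stand beside 9.74% of all genes at least 2-fold higher with IRF8 and 8.74% lower. Of 20 leukocyte integrins and adhesion genes 3 were at least 2-fold higher with IRF8 and 3 lower. Icam1, a ligand of leukocyte integrins, was higher (1.11 ± 0.065), as was the beta 1 integrin Itgb1 (1.12 ± 0.049). The list of CDK inhibitors and pocket proteins also holds some cyclins. Of its 14 genes tested 0 were higher and 1 was lower, Ccnd1, a D-type cyclin, which was dim. Of 15 immediate early and heat shock genes 4 were higher and 1 lower. Jund, an AP-1 subunit, was higher with IRF8 (1.27 ± 0.037), and Dusp1, a phosphatase of MAP kinases, was lower (-1.60 ± 0.096). Of 13 T and NK cell genes 0 were higher and 2 lower, among them Cd3d, with 58.1 and 51.2 with IRF8 and 345 and 341 with C/EBPalpha, and of 6 B cell genes 0 were higher and 2 lower, Cd22 and Cd79b.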
